A study of Mus musculus with 8 samples.

Results

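Transcripts of 9 genes of the Notch pathway were examined in mandibular molar tooth germs of mouse embryos: the receptors Notch1, Notch2 and Notch3, the ligands Jag1, Jag2 and Dll1, the glycosyltransferase gene Lfng, and the target genes Hes1 and Hey1. The members were the probe sets that the platform annotation gives to exactly 1 of these genes. There were 16 such probe sets among 34945 single-gene probe sets, and the 9 genes were among 18193 genes with at least 1. Pregnant ICR mice, an outbred stock, were injected once, intraperitoneally, at embryonic day 14, and the tooth germs were taken 24 hours later. The 4 groups were 5E1, an antibody that binds Shh (10 mg/kg), 40-1a, an isotype-matched antibody to β-galactosidase (10 mg/kg), cyclopamine, an antagonist of the Hedgehog transducer Smo (10 mg/kg), and PBS (1 ml). Each group had 2 arrays. The sources used here give neither the vehicle of cyclopamine nor the number of litters behind an array, so p-values measure the spread between these arrays. Arrays measured whole germs, in which fewer cells of a type and less RNA per cell cannot be told apart.

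Notch signalling passes between touching cells. A Jagged or Delta ligand on one cell binds a Notch receptor on the next, the receptor is cut by ADAM10 and then by γ-secretase, and its freed intracellular part joins the DNA-binding protein RBPJ and a Mastermind protein to switch on genes, above all the Hes and Hey genes, which encode bHLH repressors. Lunatic fringe, the product of Lfng, adds a sugar to the receptor in the Golgi and shifts its response towards Delta ligands. In the mouse tooth germ, Notch receptors are known from the layers of the enamel organ that lie away from the mesenchyme, such as the stratum intermedium, and Jag2 mutant mice have tooth defects.

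Promoter sequences of the genes whose levels varied together over the arrays (described below) are shown with the letters that the pathway's own factors are known to bind. The windows run from 250 bases before to 50 bases from the gene's start, on the gene's strand, from RefSeq (GRCm38.p6). They are chr5:140607091-140607390 for Lfng (plus strand), chr2:26503773-26504072 for Notch1, chr17:32166841-32167140 for Notch3 and chr12:112929446-112929745 for Jag2 (all minus strand). Capitals mark TGGGAA, the core bound by RBPJ, and CACGNG, the E-box form bound by Hes and Hey proteins, each on either strand.
Lfng: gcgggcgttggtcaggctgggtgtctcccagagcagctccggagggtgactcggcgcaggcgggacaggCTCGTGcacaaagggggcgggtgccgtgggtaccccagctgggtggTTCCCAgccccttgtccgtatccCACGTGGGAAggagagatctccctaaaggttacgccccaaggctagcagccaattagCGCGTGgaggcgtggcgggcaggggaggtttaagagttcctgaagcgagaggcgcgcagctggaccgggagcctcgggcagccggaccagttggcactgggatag
Notch1: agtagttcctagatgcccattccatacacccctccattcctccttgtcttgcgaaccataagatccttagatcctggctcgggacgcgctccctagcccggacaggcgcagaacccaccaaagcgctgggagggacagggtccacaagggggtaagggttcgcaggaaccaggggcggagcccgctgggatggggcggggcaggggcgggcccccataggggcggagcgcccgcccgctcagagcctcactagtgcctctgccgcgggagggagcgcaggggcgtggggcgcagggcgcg
Notch3: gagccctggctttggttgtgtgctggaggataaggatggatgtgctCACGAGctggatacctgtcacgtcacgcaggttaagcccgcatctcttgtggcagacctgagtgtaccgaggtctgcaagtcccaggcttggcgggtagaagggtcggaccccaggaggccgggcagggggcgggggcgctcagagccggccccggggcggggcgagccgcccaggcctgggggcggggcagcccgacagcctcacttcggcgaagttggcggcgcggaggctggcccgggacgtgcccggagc
Jag2: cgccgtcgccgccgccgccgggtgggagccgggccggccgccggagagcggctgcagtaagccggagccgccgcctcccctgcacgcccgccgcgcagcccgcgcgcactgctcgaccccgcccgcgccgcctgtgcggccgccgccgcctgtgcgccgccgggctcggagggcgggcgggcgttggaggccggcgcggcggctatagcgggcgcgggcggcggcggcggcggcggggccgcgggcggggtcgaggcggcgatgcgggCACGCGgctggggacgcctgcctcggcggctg

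Of the 9 genes, 7 had a window (8 windows, since Dll1 has 2). The target genes Hes1 and Hey1 had none, so their promoters were not searched. The RBPJ core was in the window of 1 of these 7 genes, Lfng, and in 25.6% of all 32851 windows. Lfng held it at 2 places, and the one nearer to the gene's start was part of the longer form CGTGGGAA, which 0.734% of all windows hold. That match overlapped 1 of the 3 E-box matches of the window, CACGTG. The E-box letters were in 7 of the 8 windows, from 6 of the 7 genes, and in 27.5% of all windows. The shares over all windows were not matched for G and C, which made up 55.7% to 86% of these 8. The window of Notch1, with 68.3% G and C, had neither motif. A match is a run of letters, not a site shown to be bound.

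None of the 9 genes passed the test between injection groups in any of the comparisons made, and neither did the Hedgehog feedback genes, although these lay several-fold lower after 5E1 on both arrays. The values are MAS5 signals, a linear intensity per probe set with each array scaled by the authors, and differences are log2 differences from limma over 13008 genes. Each gene was tested through its probe set with the highest mean, and all 9 passed the filter on low values (a mean signal of about 60.3). In the comparison of 5E1 with 40-1a, 0 of 9 genes were called at an adjusted p of 0.05, the background over all genes tested was 0%, and 0 of 9 had an unadjusted p under 0.05 (159 of 13008 genes did). The smallest unadjusted p among the 9 was 0.304, for Lfng, and the median log2 difference was -0.05, against -0.01 over all genes. For scale, Ptch1, the Hedgehog receptor and feedback target, had signals averaging 1837 ± 402 after 5E1 and 9251 ± 2930 after 40-1a (SD, n = 2 each), a log2 difference of -2.31 (SE 0.30) whose limma adjusted p was 0.969. Gli1, a transcription factor induced by Hedgehog signalling, was at -2.22 (SE 0.40) and Hhip, a Hedgehog-binding antagonist, at -1.58 (SE 0.46), without overlap between the groups. The 95% intervals of all 9 Notch pathway genes held 0 and lay between -1.30 and 1.51.

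In the comparison of cyclopamine with PBS, limma again called 0 of 9 genes (background 0%), with 0 of 9 at an unadjusted p under 0.05 (205 of 13008 genes). The median of the 9 was 0.05, against 0.02 over all genes, and their intervals lay between -1.04 and 2.09. After cyclopamine the feedback genes themselves gave no detectable difference on these arrays, with Ptch1 at -0.27 (SE 0.30), Gli1 at 0.08 (SE 0.40) and Hhip at -0.63 (SE 0.46), all with overlap. The antibody 40-1a against PBS, which shows what an unrelated antibody does, had 0 of 9 genes called (background 0%) and 0 of 9 at an unadjusted p under 0.05 (88 of 13008 genes). With both blocking agents set against both controls, which uses the same arrays again, 0 of 9 were called (background 0%), and 0 of 9 had an unadjusted p under 0.05 (159 of 13008 genes). The difference between the effect of 5E1 and that of cyclopamine was called for 0 of 9 genes as well (background 0%), the smallest unadjusted p being 0.385, for Notch3 (187 of 13008 genes were under 0.05).

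**Figure D1:**
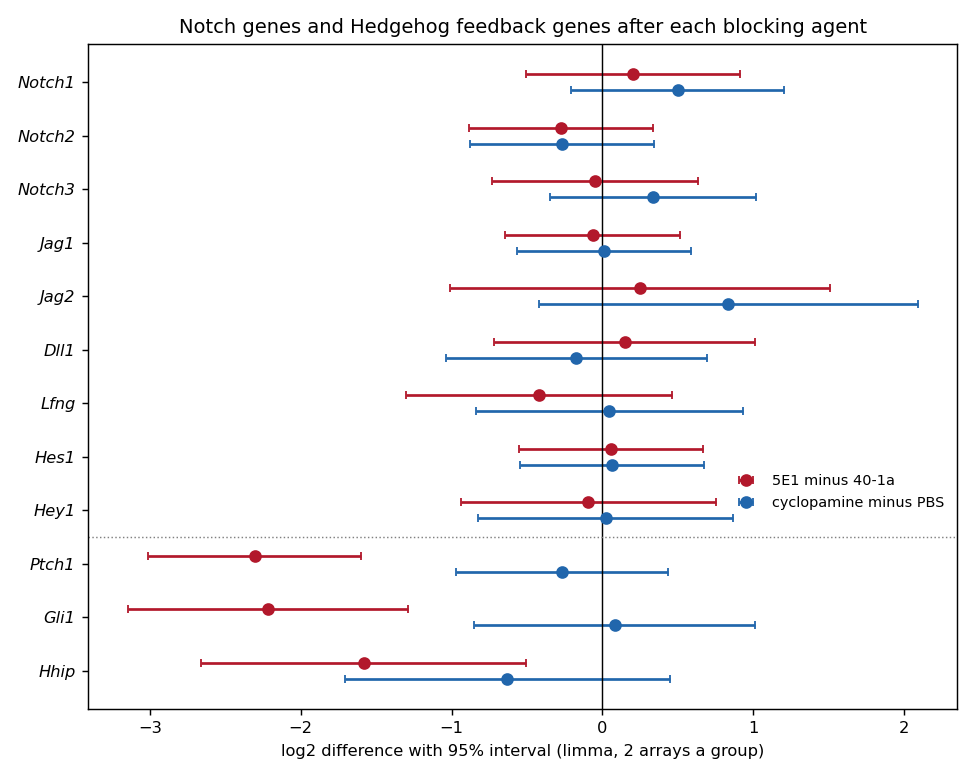
Log2 differences (points) with 95% intervals from limma for the 9 Notch pathway genes (top) and 3 Hedgehog feedback genes (bottom), for 5E1 minus 40-1a (red) and cyclopamine minus PBS (blue), 2 arrays a group. All 18 intervals of the Notch pathway genes include 0, whereas those of Ptch1, Gli1 and Hhip after 5E1 lie below 0.

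A second description asks only whether all arrays of one group lie above all arrays of the other. For 5E1 against 40-1a this held for 1 of 9 genes, Dll1, where 19.4% of all genes did not overlap. For cyclopamine against PBS it held for 3 of 9, Notch1, Notch3 and Jag2, all higher after cyclopamine, where 32.2% of all genes did not overlap. For 40-1a against PBS it held for 0 of 9, where 20.5% did not overlap.

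**Figure D2:**
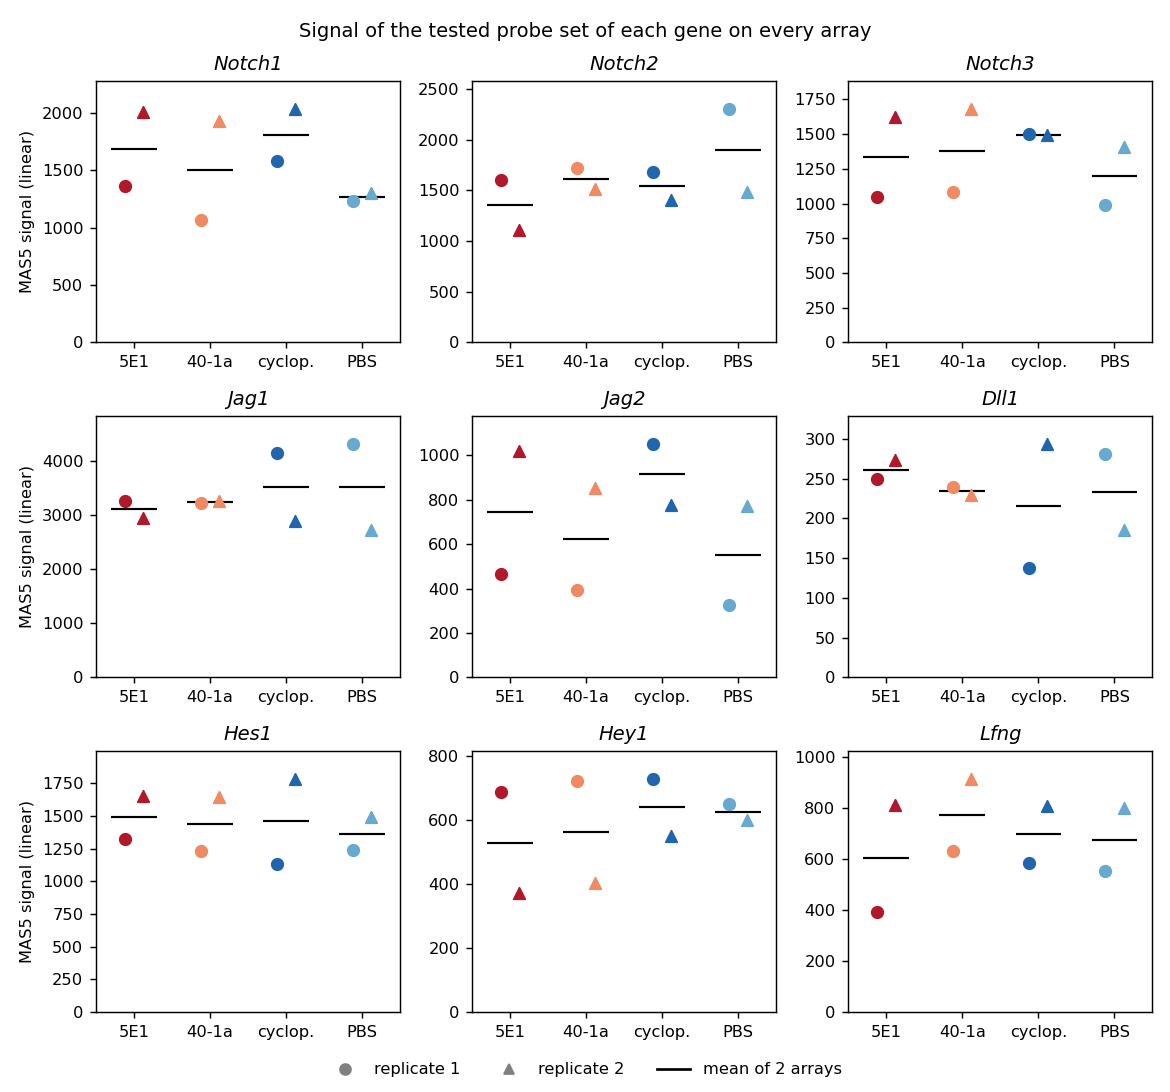
MAS5 signal (linear, axis from 0) of the tested probe set of each gene on every array, by group, with circles for replicate 1, triangles for replicate 2 and a line at the mean of 2 arrays. In the 5E1 and 40-1a groups the 2 replicates of Notch1, Notch3, Jag2, Lfng, Hes1 and Hey1 lie further apart than the means of these groups do.

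Among the ligands, Jag1 had a signal of 3261 and 2943 after 5E1, against 3216 and 3265 after 40-1a. It was at 4143 and 2886 after cyclopamine, against 4311 and 2728 after PBS. In each pair of groups the values of Jag1 overlapped, with log2 differences of -0.06 (SE 0.25) for 5E1 minus 40-1a and 0.01 (SE 0.25) for cyclopamine minus PBS. These were the narrowest intervals of the 9 genes, from -0.64 to 0.51 and from -0.57 to 0.59.

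Jag1 has 3 probe sets, and the other 2 did not follow the tested one. The weakest of the 3 was at 104.1 and 93.9 after cyclopamine, against 288.3 and 155.3 after PBS, a log2 difference of -1.04 (SE 0.43). The other was at 324.7 and 396.6 after cyclopamine, against 684.0 and 400.1 after PBS, a log2 difference of -0.53 (SE 0.40). Neither overlapped, and neither passed when every probe set was a feature of its own, the limma adjusted p over 23594 probe sets being 0.965 for both (unadjusted p 0.0418 and 0.221). After 5E1 the same 2 probe sets were at -0.40 (SE 0.43) and -0.39 (SE 0.40), with overlap. For both agents minus both controls they were at -0.72 (SE 0.30, limma unadjusted p = 0.0447) and -0.46 (SE 0.28). Both overlapped there and neither was called, and the tested probe set was at -0.03. With the mean of its probe sets Jag1 was at -0.52 for cyclopamine minus PBS (adjusted p = 0.934).

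Jag2 had a signal of 466.9 and 1020 after 5E1, against 392.4 and 853.5 after 40-1a. It was at 1052 and 776.1 after cyclopamine, against 325.1 and 773.2 after PBS. The log2 difference was 0.25 (SE 0.54) for 5E1 minus 40-1a and 0.84 (SE 0.54) for cyclopamine minus PBS, the largest positive values of the 9 genes in these 2 comparisons, with adjusted p = 1 and 0.983 by limma. The gap in the second comparison was widest against PBS replicate 1: without that array the difference was 0.22, and without PBS replicate 2 it was 1.45. The second probe set of Jag2 gave 524.5 on cyclopamine replicate 1, where the tested one gave 1052, and its difference for cyclopamine minus PBS was 0.28 (SE 0.45) with overlap. Cyclopamine replicate 1 also stood apart in its 18S ribosomal RNA control probe sets, whose mean was 2548 there and 52.9 to 447.6 elsewhere. The part of this in the Jag2 value was not tested.

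Dll1 is the Delta ligand of the set. Its single probe set was at 248.8 and 273.2 after 5E1, against 239.3 and 229.4 after 40-1a, with no overlap and a log2 difference of 0.15 (SE 0.37). After cyclopamine it was at 137.7 and 293.6, against 281.0 and 185.1 after PBS, so the 2 cyclopamine arrays enclosed both PBS arrays (log2 difference -0.17, SE 0.37). The sign of this difference turned to 0.35 without cyclopamine replicate 1 and to 0.12 without PBS replicate 1.

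Among the receptors, Notch1 had a signal of 1365 and 2007 after 5E1, against 1071 and 1926 after 40-1a (log2 difference 0.20, SE 0.31). It was at 1584 and 2034 after cyclopamine, against 1233 and 1300 after PBS (0.50, SE 0.31, 95% interval -0.21 to 1.21, limma adjusted p = 0.983). Both cyclopamine arrays lay above both PBS arrays here, and the difference was 0.32 without cyclopamine replicate 2 and 0.68 without cyclopamine replicate 1. The second probe set of Notch1 was at 455.5 and 729.9 after cyclopamine, against 407.0 and 619.8 after PBS, and overlapped (0.20, SE 0.44). In both probe sets the spread within the 5E1 and 40-1a groups was wider than the difference between them.

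Notch2 was at 1602 and 1104 after 5E1, against 1720 and 1508 after 40-1a. After cyclopamine it was at 1680 and 1408, against 2302 and 1486 after PBS. Its log2 differences were -0.27 (SE 0.26) and -0.26 (SE 0.26), with overlap in both. Without 5E1 replicate 2 the first was -0.01, and without PBS replicate 1 the second was 0.05. The other Notch2 probe set, with signals of 8.16 to 107.7, was the 1 of 16 below the filter and was not tested.

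Notch3, a receptor also known from the mural cells of vessels, had a signal of 1047 and 1625 after 5E1, against 1083 and 1681 after 40-1a. It was at 1500 and 1490 after cyclopamine, against 991.6 and 1410 after PBS. The log2 differences were -0.05 (SE 0.30) and 0.34 (SE 0.30), the second without overlap. The second was 0.08 without PBS replicate 1 and 0.59 without PBS replicate 2. The tested probe set carries the suffix _s_at, which Affymetrix gives to probe sets that can match several transcripts. The second probe set ran the same way, at -0.36 (SE 0.75) for 5E1 minus 40-1a and 0.84 (SE 0.75) for cyclopamine minus PBS. Summed signals of the 8 listed mural cell markers were 11810 and 8049 after cyclopamine, against 11171 and 9058 after PBS, and 4 of 8 were higher on average after cyclopamine.

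Lfng had the lowest difference of the 9 genes after 5E1. Its tested probe set was at 392.2 and 812.2 after 5E1, against 629.4 and 913.1 after 40-1a (log2 difference -0.42, SE 0.38, 95% interval -1.30 to 0.46, limma adjusted p = 1). The groups overlapped. Without 5E1 replicate 2 the difference was -0.94, and without 5E1 replicate 1 it was 0.10. The second probe set of Lfng was at 56.7 and 194.7 after 5E1, against 31.9 and 202.5 after 40-1a, and its difference had the opposite sign (0.31, SE 0.97). After cyclopamine the tested probe set was at 583.9 and 807.8, against 552.4 and 798.2 after PBS (0.05, SE 0.38).

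Hes1 and Hey1, the target genes of the set, gave differences near 0 with intervals that reach further on both sides. Whether their levels follow receptor activity in these germs was not tested. Hes1 was at 1324 and 1655 after 5E1, against 1231 and 1644 after 40-1a. It was at 1133 and 1785 after cyclopamine, against 1242 and 1490 after PBS. The log2 differences of Hes1 were 0.06 (SE 0.26, 95% interval -0.55 to 0.67) and 0.06 (SE 0.26, 95% interval -0.55 to 0.67). Hey1 was at 687.9 and 371.3 after 5E1, against 722.6 and 403.2 after 40-1a. After cyclopamine it was at 729.4 and 551.8, against 650.3 and 599.7 after PBS. Its differences were -0.09 (SE 0.36, 95% interval -0.94 to 0.75) and 0.02 (SE 0.36, 95% interval -0.82 to 0.87). Both genes overlapped between the groups in each comparison, and each has 1 probe set.

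**Figure D3:**
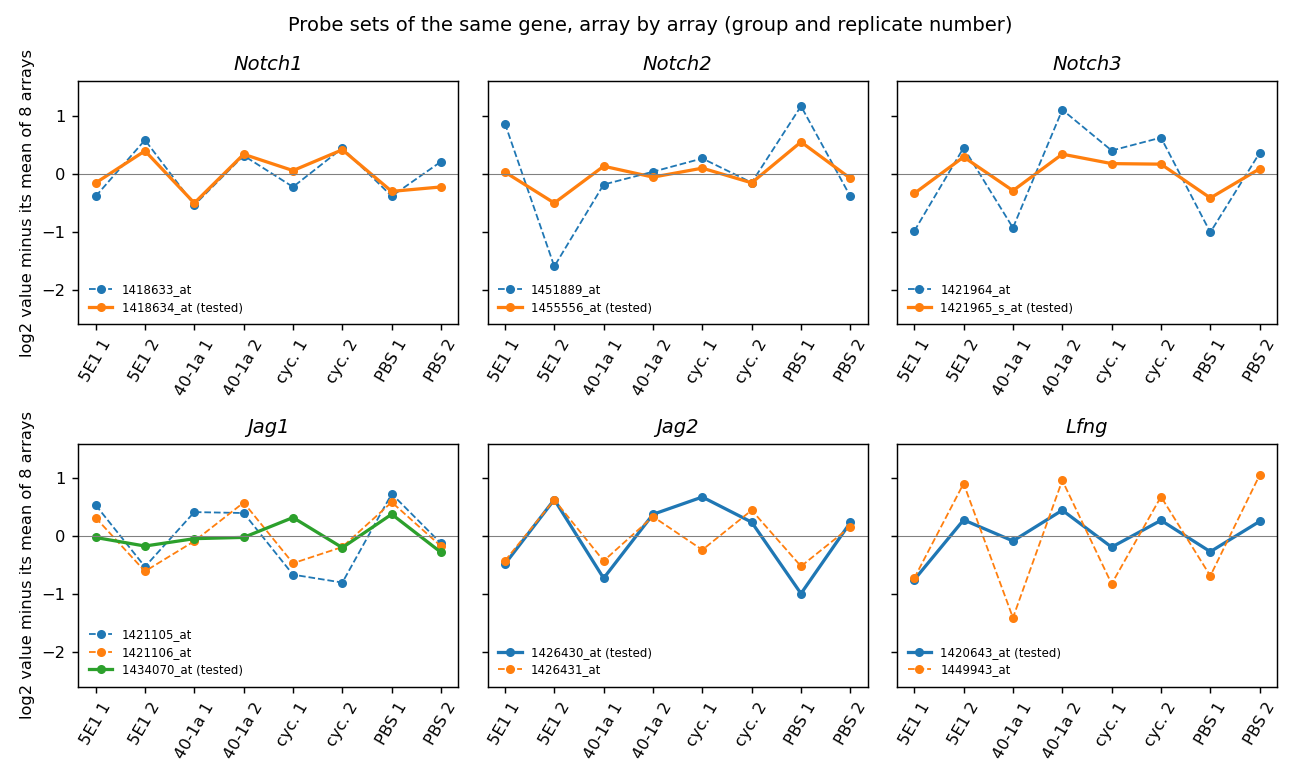
Log2 values of the probe sets of the 6 genes with more than 1, each minus its own mean over 8 arrays, with solid lines for the tested probe set and dashed lines for the others. Both probe sets of Notch1, Notch3 and Lfng are higher on replicate 2 than on replicate 1 of 5E1 and of 40-1a, while those of Jag1 and Jag2 part on cyclopamine replicate 1.

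The order of the 4 groups by mean signal differed from gene to gene. Notch1 and Jag2 ran cyclopamine, 5E1, 40-1a, PBS from high to low, and Notch2 ran PBS, 40-1a, cyclopamine, 5E1. Neighbours in this order overlapped in all 9 genes except at 1 place, Dll1 after 5E1 and after 40-1a. Against PBS, the 9 differences of 40-1a lay between -0.21 (Hey1) and 0.20 (Jag2), and the smallest unadjusted p among them was 0.472.

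Several of these genes differed more between the arrays of 1 group than between groups, and the arrays fell into clusters that cut across the groups. By correlation over the 13008 genes, 5E1, 40-1a and PBS replicate 1 formed a cluster, 5E1, 40-1a and cyclopamine replicate 2 another, and cyclopamine replicate 1 and PBS replicate 2 the third. Replicate 2 was above replicate 1 in all 4 groups for Notch1, Hes1 and Lfng (14.3% of all genes tested) and below it in all 4 for Notch2 and Hey1 (18.8%). From the first cluster to the second, Jag2 differed by 1.15 on the log2 scale, Notch1 by 0.70, Lfng by 0.70, Notch3 by 0.61 and Hes1 by 0.42. Hey1 differed by -0.65 and Notch2 by -0.48. Jag1, at -0.23, and Dll1, at 0.04, differed less between these clusters, although Dll1 differed by 1.04 between the cyclopamine arrays and Jag1 by -0.66 between the PBS arrays (replicate 2 minus replicate 1). Of all genes tested, 98.5% had a lower value than Jag2 here and 8.54% a lower one than Hey1. These clusters come from the same arrays, so the values are a description without a test, and the cause of the clusters was not tested.

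Marker lists also differed between the clusters, though not always along with the tested probe sets. In the cyclopamine group, replicate 2 minus replicate 1 was -0.43 for the tested probe set of Jag2 and 0.68 for its second one. The mean of the dental epithelium list was higher on replicate 2 of that group. All 13 dental epithelium genes with a probe set were higher in the second cluster than in the first, by a mean of 0.82, and their summed signals were 113789, 113978 and 115285 in the second cluster, against 66759 to 67575 in the first. The 13 skeletal muscle genes were higher there too (mean 1.41), as were 11 of 12 genes of suprabasal oral epithelium (1.21). Summed muscle signals were 10074 on 40-1a replicate 2 and 11369 on cyclopamine replicate 2, but 4067 on 5E1 replicate 2. In the first cluster they were 1236 to 3653. None of the 12 dental mesenchyme genes with a probe set was higher (mean -1.15), nor any of the 12 endothelial genes (-0.70), and 1 of 8 mural cell genes was (-0.78). The defining markers of the germ were present throughout: Krt14, a keratin of basal epithelium, was at 10080 to 19730 and Msx1, a transcription factor of dental mesenchyme, at 1426 to 6746. The arrays of cyclopamine minus PBS, of 40-1a minus PBS and of both agents minus both controls are unevenly spread over the clusters. For cyclopamine minus PBS, all 13 dental epithelium genes were higher on average (mean 0.41), and 2 of 12 dental mesenchyme genes were (mean -0.43). In the same comparison 12 of 13 skeletal muscle genes (mean 0.99), 11 of 12 suprabasal genes (0.41) and 2 of 12 endothelial genes (-0.40) were higher. With the cluster as a block, the difference for cyclopamine minus PBS was 0.18 for Notch1, against 0.50 without the block. It was 0.035 for Notch3, against 0.34, 0.31 for Jag2, against 0.84, and -0.03 for Notch2, against -0.26. Other members moved away from 0 with the block. Hey1 was at 0.41, against 0.02, Lfng at -0.36, against 0.05, and Hes1 at -0.17, against 0.06. Jag1 was at 0.15, against 0.01, and Dll1 at -0.23, against -0.17. That block rests on clusters drawn from these values, and the part of each marker list was not tested. For 5E1 minus 40-1a, which is balanced over the first 2 clusters, the means were 0.09 and -0.44, with 6 of 13 and 1 of 12 genes higher.

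**Figure D4:**
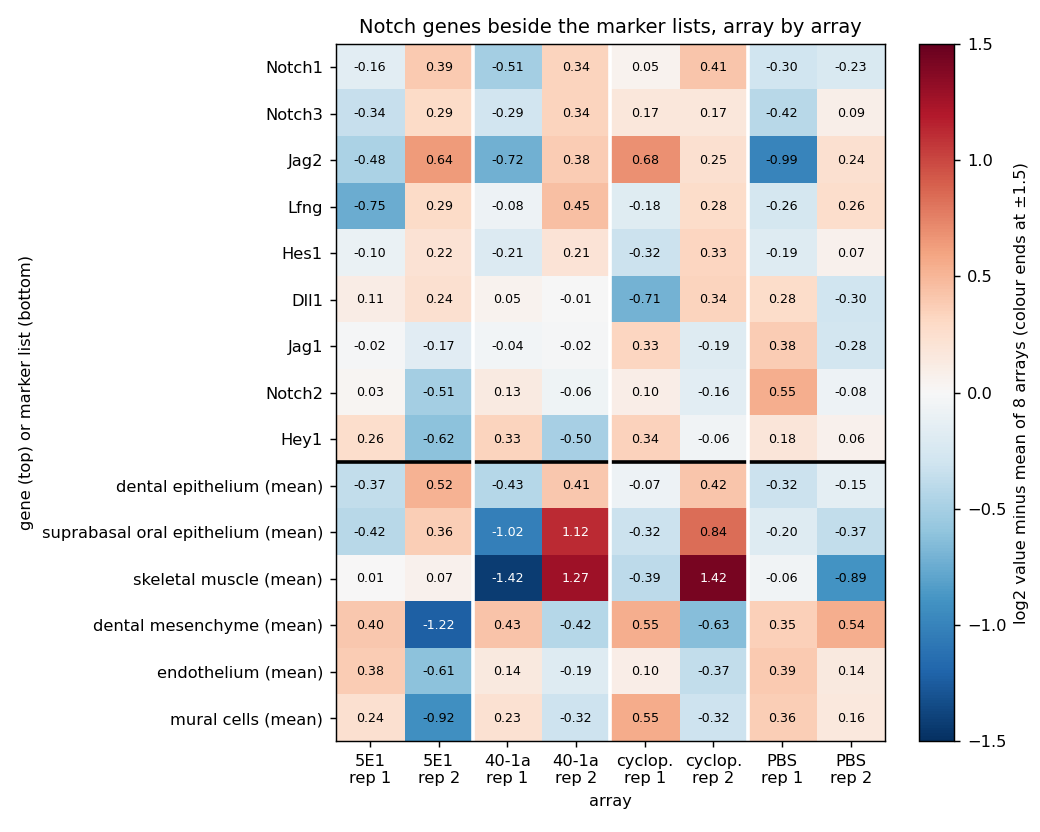
Log2 values minus their mean over 8 arrays, in colour and as numbers, for the tested probe set of each gene (above the line) and the mean of each marker list (below it), with 1 column per array. Notch1, Notch3, Jag2, Lfng and Hes1 are above their mean on replicate 2 of 5E1, 40-1a and cyclopamine, and Notch2 and Hey1 are below theirs. Dental epithelium and skeletal muscle markers are above their means there too. Muscle is so by 0.07 on 5E1, 1.27 on 40-1a and 1.42 on cyclopamine replicate 2.

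Within the clusters the antibody comparison can be read in 1 pair of arrays each, but the pairs were not alike in every marker list. Summed dental mesenchyme signals were 36350 after 5E1 and 36049 after 40-1a on replicate 1, and 11578 and 19892 on replicate 2. Muscle sums were 3529 and 1236, then 4067 and 10074, and suprabasal sums 24962 and 14534, then 44748 and 69795. Dental epithelium sums were close, at 66970 and 66759, then 113789 and 113978. The part of these lists in the values below was not tested. Between 5E1 and 40-1a replicate 1 the log2 difference was 0.35 for Notch1, 0.25 for Jag2, 0.10 for Hes1, -0.07 for Hey1 and -0.67 for Lfng. Between 5E1 and 40-1a replicate 2 it was 0.06 for Notch1, 0.25 for Jag2, 0.01 for Hes1, -0.12 for Hey1 and -0.17 for Lfng. The tested probe set of Notch3 was at -0.05 in both pairs. The sign of Jag1 differed between the pairs, 0.02 and -0.15, while Dll1 was at 0.05 and 0.24 and Notch2 at -0.10 and -0.45. The second probe set of Lfng was at 0.68 and -0.05, against the sign of the tested one in the first pair. Other probe sets differed more between the pairs than the tested ones for Jag1 and Notch3. The weakest of Jag1 was at 0.12 and -0.93, its other one at 0.40 and -1.19, and the second of Notch3 at -0.06 and -0.65. The second probe set was at 0.15 and 0.27 for Notch1 and at 0.0013 and 0.29 for Jag2.

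The rest of the pathway gave the same count. Of 47 other Notch pathway genes listed, 43 had a single-gene probe set, 5 of these (Dll3, Maml2, Hes2, Hes3 and Hes5) lay below the filter, and 38 were tested. Limma called 0 of 38 in each comparison, as it did 0 of all 13008 genes. In the 5E1 comparison 0 of 38 had an unadjusted p under 0.05, with a median log2 difference of 0.03, and 22 of 38 were above 0, against 159, -0.01 and 6070 over the 13008 genes. The 3 with the smallest p were Heyl, a relative of Hey1, at -0.44 (SE 0.24), Psen2, a catalytic subunit of γ-secretase, at 0.37 (SE 0.27), and Poglut1, which adds glucose to Notch receptors, at 0.20 (SE 0.15). Heyl had a signal of 226.2 and 171.3 after 5E1, against 295.8 and 246.1 after 40-1a. It was 1 of 8 of the 38 without overlap, where 19.4% of all genes did not overlap.

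In the cyclopamine comparison, 2 of 38 had an unadjusted p under 0.05, 1 in each direction, with a median of 0.10, against 205 and a median of 0.02 over the 13008 genes. Psenen, a γ-secretase subunit, was at 5059 and 5304 after cyclopamine, against 4125 and 3986 after PBS (0.35, SE 0.13, limma adjusted p = 0.983). Hey2, the other close relative of Hey1, was at 139.3 and 153.8 after cyclopamine, against 229.3 and 212.9 after PBS (-0.57, SE 0.24, limma adjusted p = 0.983). Dlk2, a non-canonical ligand, was the third by p, at 0.53 (SE 0.29). In this comparison 16 of the 38 did not overlap, where 32.2% of all genes did not overlap. Hey2 had the opposite sign for 5E1 minus 40-1a, at 0.215 (SE 0.24), higher without overlap. After 40-1a against PBS the 3 smallest p were those of Notch4, an endothelial receptor (-0.65, SE 0.30), Psenen (0.27, SE 0.13) and Poglut1 (-0.28, SE 0.15), with 0 of 38 under 0.05. With both agents against both controls they were those of Heyl (-0.37, SE 0.17), Poglut1 (0.21, SE 0.11) and Psenen (0.17, SE 0.09), again with 0 of 38 under 0.05. Heyl was lower on the 4 arrays of 5E1 and cyclopamine, at 171.3 to 229.9, than on the 4 control arrays, at 246.1 to 295.8, and its adjusted p was 1. It was the 1 of 38 without overlap in that comparison, as were 178 of all 13008 genes. The Hedgehog feedback genes lay below their controls without overlap only after 5E1, and overlapped after cyclopamine. Endothelial markers were summed at 6914 and 3374 after 5E1, against 6016 and 4527 after 40-1a, and at 5609 and 4105 after cyclopamine, against 6903 and 5620 after PBS. Markers of mural cells, from which Heyl is known, were summed at 11491 and 5989 after 5E1, against 10178 and 7079 after 40-1a (mean log2 difference -0.42, against -0.09 for endothelium). For cyclopamine minus PBS the mean log2 difference was -0.05 for mural and -0.40 for endothelial markers. Their part in the Heyl value was not tested. For the difference between the effects of 5E1 and cyclopamine, the 3 smallest p were those of Hey2 (0.78, SE 0.34), Psenen (-0.37, SE 0.19) and Dtx4, a ubiquitin ligase (-0.64, SE 0.34). There 0 of 38 had an unadjusted p under 0.05, against 187 of 13008 genes.

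Over the 8 arrays, the gene most like each member by Pearson's r of log2 values was Cmas for Notch1 (0.999), Tmem132a for Notch3 (0.996), Arfgap3 for Hey1 (0.988) and Ndufa10 for Jag2 (0.987). It was Efna4 for Hes1 (0.986), Pnrc1 for Lfng (0.977), Ccpg1os for Dll1 (0.964), Clvs1 for Jag1 (0.946) and Abcc9, one of the listed mural cell markers, for Notch2 (0.945). Each is the highest value among all other genes tested, over arrays that share the clusters described above.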

How the data were processed

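The authors deposited 1 linear intensity per probe set and array, and the submitters' processing notes name MAS5. The mean after trimming 2% at each end was 500.0 on every array, and no further scaling was applied. RNA was labelled with biotin, 1 sample per array. Values were transformed to log2(signal + 9), 9 being the rounded 10th percentile of all values, so folds of weak genes are understated. Of 45101 probe sets, the 34945 that the platform annotation gives to 1 gene were used. The probe set with the highest mean stood for each gene, and 13008 genes with a mean at or above the 40th percentile were tested. Limma 3.58.1 in R 4.3.3 fitted the 4 group means to all 8 arrays (lmFit, contrasts.fit, eBayes with a trend, 4 residual degrees of freedom), with Benjamini-Hochberg adjustment over all genes tested and a threshold of 0.05. The number of arrays limits the precision. The fit was tested on simulated data. The members, the other pathway genes and the marker lists were chosen with earlier results of these data known. Named genes are all members with their probe sets, 3 Hedgehog feedback genes, the 3 other pathway genes with the smallest p in each comparison, and the 1 gene most like each member. Alternatives were quantile normalisation, other pseudocounts and filters, the mean of probe sets or each as a feature, the compared groups alone, 2 blocks and each array left out.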

Additional observations from a re-analysis of the deposited data

How the results depend on the processing

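No member was called in any of the 4 comparisons under any alternative, 0 of 351 values with another setting and 0 of 288 with an array left out. Signs turned in 17 of the 351. With quantile normalisation Jag1 was at -0.0128 (cyclopamine minus PBS) and Dll1 at 0.0781 (both agents minus both controls). With the mean of probe sets Jag1 was at -0.52 and Lfng at -0.10 for cyclopamine minus PBS, and at 0.0213 and -0.11 for 40-1a minus PBS. With the array cluster block Hes1 was at -0.17 and Lfng at -0.36 for cyclopamine minus PBS. For 40-1a minus PBS it gave -0.051 for Notch1, -0.40 for Dll1, -0.15 for Hes1, 0.0601 for Hey1 and -0.0015 for Lfng, and for both agents -0.0067 for Notch3, 0.0452 for Jag1, -0.0589 for Hes1 and 0.16 for Hey1. The cause was not tested.

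Each array left out in turn turned 53 of 288 signs. For 5E1 minus 40-1a the range was -0.22 to 0.62 for Notch1, -0.36 to 0.27 for Notch3, -0.14 to 0.0093 for Jag1, -0.31 to 0.81 for Jag2, -0.15 to 0.26 for Hes1, -0.53 to 0.34 for Hey1 and -0.94 to 0.10 for Lfng. For cyclopamine minus PBS it was -0.58 to 0.0493 for Notch2, -0.32 to 0.34 for Jag1, -0.69 to 0.35 for Dll1, -0.26 to 0.39 for Hes1, -0.18 to 0.22 for Hey1 and -0.21 to 0.31 for Lfng. For 40-1a minus PBS it was -0.24 to 0.60 for Notch1, -0.51 to 0.12 for Notch2, -0.13 to 0.50 for Notch3, -0.41 to 0.25 for Jag1, -0.41 to 0.82 for Jag2, -0.25 to 0.33 for Dll1, -0.14 to 0.27 for Hes1, -0.62 to 0.21 for Hey1 and -0.0765 to 0.45 for Lfng. For both agents it was -0.0135 to 0.30 for Notch3, -0.19 to 0.14 for Jag1, -0.27 to 0.25 for Dll1, -0.10 to 0.22 for Hes1, -0.25 to 0.18 for Hey1 and -0.44 to 0.073 for Lfng.

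The labels name no pairing. Deviations of same-numbered arrays correlated over genes at 0.59 between 5E1 and 40-1a at 0.32 to 0.41 in 4 other pairs of groups and at 0.0016 between cyclopamine and PBS. With the replicate block limma called 0 members. Its smallest unadjusted p for a member was 0.0575 for 5E1 minus 40-1a (Lfng, -0.42, adjusted p = 1) and 0.0274 for cyclopamine minus PBS (Notch1, 0.50, adjusted p = 0.702). For both agents it was 0.0281 (Notch1, 0.35, adjusted p = 0.938). With the array cluster block the first 2 were 0.0362 (Lfng, -0.42, adjusted p = 0.993) and 0.0382 (Hey1, 0.41, adjusted p = 0.843), and for both agents it was 0.0136 (Lfng, -0.39, adjusted p = 0.968). Over all 13008 genes the replicate block called 1 gene for 5E1 minus 40-1a and 1 for both agents, and the cluster block 3 and 2, against 0 without a block. Those clusters come from the values they are applied to.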
